A study of Mus musculus with 8 samples.

Results

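Axon guidance genes of 4 ligand families and their receptors were followed in the embryonic mouse heart: the semaphorins with the plexins and neuropilins, the ephrins with the Eph receptors, the Slits with the Robos, and the netrins with Dcc, Unc5 and the netrin-G proteins. All gene symbols of the count table that carry one of these family names were taken, without regard to their values, which gave 71 of the 22869 symbols, 37 ligands and 34 receptors. Of these, 63 had enough reads to be tested, among 14940 tested symbols in all, and these 63 comprised 33 ligands and 30 receptors. The 8 that were not tested were Epha10 and Epha8, which had no read in any library, and Epha6, Robo3, Slit1, Sema4f, Ntn5 and Ntng2, which stayed below 1 CPM (the count scaled by the library's normalized total, where 1 CPM stood for 18.7 to 25.3 reads) in each of the 8 libraries.

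Guidance proteins are secreted or membrane-bound cues that attract or repel a moving cell or growth cone. Semaphorins of class 3 are secreted and mostly bind a neuropilin, which passes the signal through a plexin, while the other semaphorins of vertebrates are membrane-bound and bind plexins directly. Ephrins sit in the membrane and bind Eph receptor tyrosine kinases on a touching cell, so that both cells can receive a signal. Slits bind Robo receptors and netrins bind Dcc, mostly as an attractant, or Unc5 proteins, as a repellent. In the heart these families are known for roles in outflow tract septation, the formation of valves and septa, and the patterning of arteries and veins.

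RNA came from C57BL/6 mouse embryos at E12.5, when the atrioventricular cushions, the swellings from which valves and septa form, are filled with mesenchyme. The 4 groups, of 2 libraries each, were AV cushion and ventricle of wild type embryos and AV cushion and ventricle of mutant embryos. The mutant genotype is given as NfatC1+/-; KLF2fl/fl, that is, a floxed Klf2, the gene of a flow-responsive endothelial transcription factor, together with an allele of Nfatc1, a gene active in the endocardium. The sources do not state whether that Nfatc1 allele carries a recombinase or is a loss of one copy, and the study design names KLF2 fl/fl animals as the other genotype although those libraries are labelled wild type, so the controls may carry the floxed allele too. Nothing in the labels tells if both libraries of a group stem from different embryos, litters or pools, and p-values therefore measure only the spread between these libraries, which may be technical.

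Klf2 itself measured 17.3 and 12.9 CPM in the wild type cushion libraries, 1.96 and 0.651 in the mutant cushion, 11.7 and 9.19 in the wild type ventricle and 0.735 and 0.625 in the mutant ventricle. In both tissues the groups were far apart and did not overlap, with log2 fold changes of -3.54 (SE 0.42) in the cushion and -3.93 (SE 0.45) in the ventricle, yet neither passed edgeR's quasi-likelihood test at an adjusted p of 0.05 (adjusted p 0.145 and 0.269). The test of genotype with 2 libraries against 2 therefore missed even this difference. Each library held 18955733 to 26579215 counts over 1 row per symbol. The second mutant cushion library was set off from the remaining 3 cushion libraries, at -22.8 on the first principal component of all tested genes against -54.9 to -46.3 for those and 35 to 50.3 for the ventricles. Of 10 cushion mesenchyme markers all were higher in wild type cushion than in wild type ventricle and 8 passed the test, and their summed level was 4888 to 7994 CPM in the cushion libraries against 721 to 1513 in the ventricle ones. The 10 cardiomyocyte markers summed to 32463 to 49441 CPM in the cushion libraries and 46514 to 105374 in the ventricle libraries, and muscle genes were thus read in the cushion libraries too. In RNA from whole tissue, fewer cells of a type and less RNA per cell cannot be told apart.

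Per length of transcript, the receptor Nrp1 was the highest of the 71 genes in each of the 4 groups, with group means of 129.2 to 159.4 CPM per kb. Nrp1 is a co-receptor for class 3 semaphorins and for the vascular growth factor VEGF-A. The order below it turned with the tissue. In wild type cushion the netrin receptor Unc5b came next, at a mean of 54.4 CPM per kb, then Robo1 at 46.1, Epha7 at 39.7 and the plexin Plxnb2 at 37.5. In wild type ventricle the ligands Slit2 at 39.9 CPM per kb, Efnb3 at 32.6, Ntn1 at 31.8 and Sema3a at 28.4 came next, and Unc5b lay below these. In mutant hearts Unc5b at 42.4 CPM per kb and Epha7 at 36.3 followed Nrp1 in cushion, and Slit2 and then Efnb3, at 32.8, in ventricle. Sema6d was the highest membrane semaphorin in all 4 groups, at 21.4 to 28.1 CPM per kb. The highest secreted semaphorin was Sema3c in cushion, at 26.5 in wild type and 34.6 in mutant, and Sema3a in ventricle, at 28.4 and 29.3. Of the 63 tested genes, 7 had a mean below 1 CPM over the 8 libraries.

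**Figure D1:**
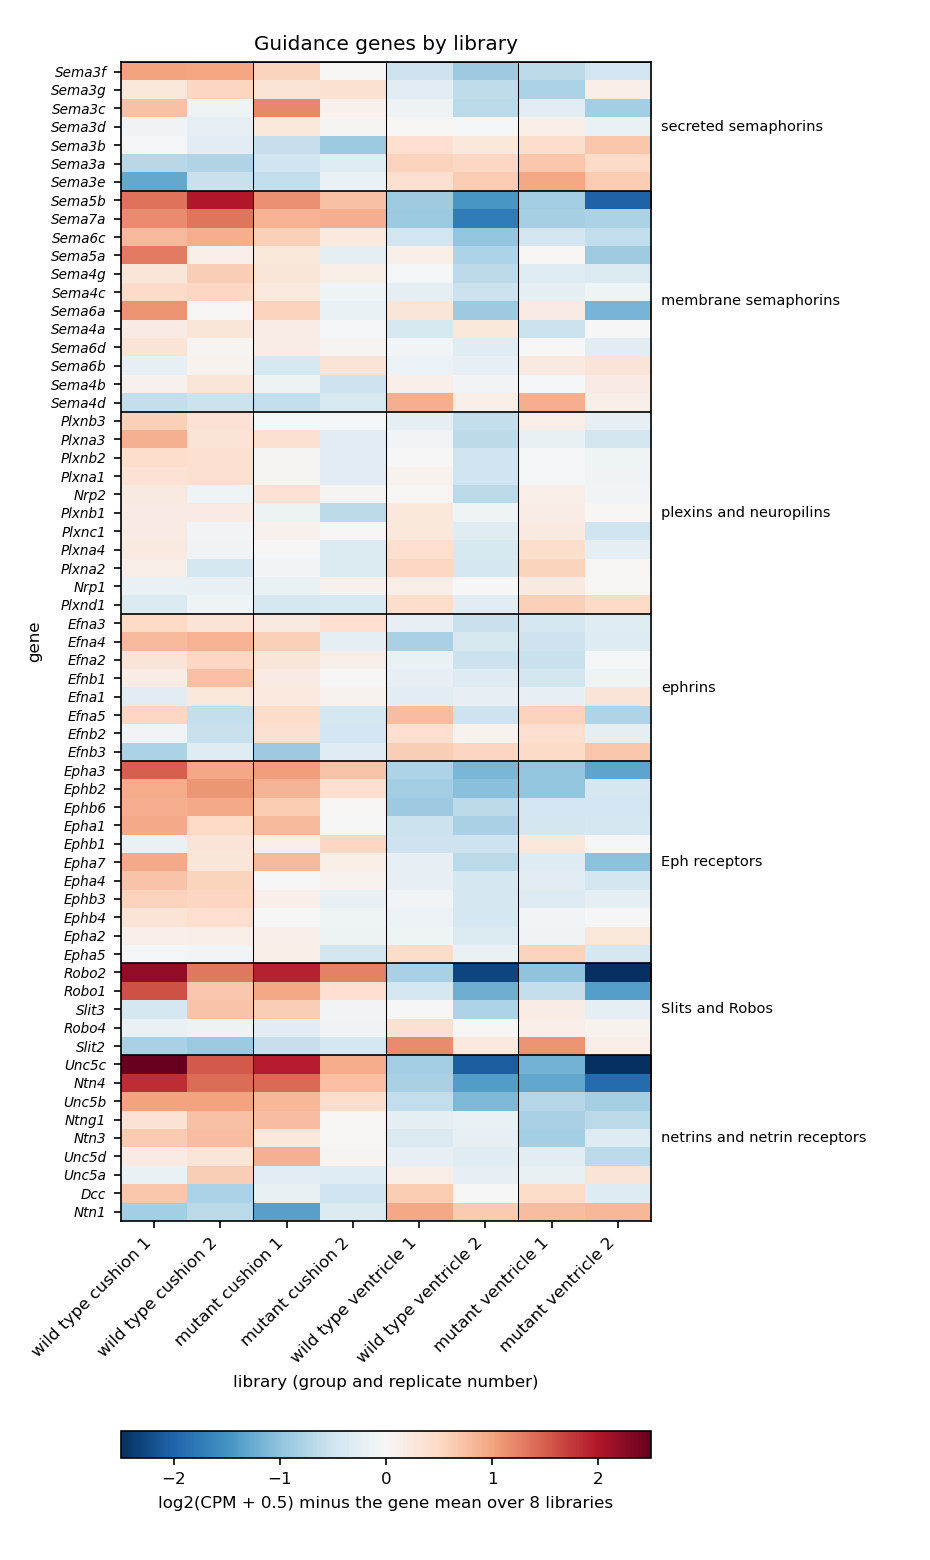
Levels of the 63 tested guidance genes (rows, grouped by class) in the 8 libraries (columns), as log2(CPM + 0.5) minus the gene's mean over the libraries. The 4 cushion columns at the left are red for most Eph receptors, for Robo1, Robo2, Unc5b, Unc5c and Ntn4, and blue for Sema3a, Sema3e, Sema4d, Efnb3, Slit2 and Ntn1; the ventricle columns show the opposite.

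The first comparison asked how the guidance genes are distributed between cushion and ventricle in wild type hearts. Of the 30 tested receptors 13 were higher in cushion and none was lower. Ligands went both ways, with 10 of 33 higher in cushion and 6 lower, and these 6, Efnb3, Ntn1, Sema3a, Sema3e, Sema4d and Slit2, were the lower genes of the whole group. Counted together, 23 of the 63 guidance genes were higher, where 12.46% of all 14940 tested genes were, and 6 were lower, where 10.6% of all were (edgeR quasi-likelihood test, Benjamini-Hochberg adjusted p below 0.05 over all genes). The median log2 fold change of the guidance genes was 0.75 and that of all genes 0.01. With the replicate number as a block, 34 were higher (21.2% of all genes) and 8 lower (20.1%). With a correction for GC content and transcript length added to the block, 23 were higher (16.3% of all genes) and 13 lower (24.9%), with a median of 0.26. In that fit receptors too went both ways, with 12 higher and 5 lower, Plxna2, Plxna4, Plxnb1, Plxnd1 and Robo4, beside 11 ligands higher and 8 lower. Without wild type ventricle replicate 2, 8 were higher, and without wild type cushion replicate 1 or 2, 14 were; the lower genes numbered 1 without wild type cushion replicate 1, 3 without wild type cushion replicate 2 and 3 without wild type ventricle replicate 1.

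Although the spread was estimated from all 8 libraries for both, the same comparison in the mutant hearts shares no library with the first. There 9 guidance genes were higher in cushion (6.16% of all genes were) and 6 lower (3.26% of all), with a median log2 fold change of 0.27 against 0.01 for all genes. In both genotypes 8 genes were higher in cushion, namely Epha3, Ephb2, Ntn4, Sema3f, Sema5b, Sema6c, Sema7a and Unc5b, where 5.09% of all genes were higher in both. Another 4 were lower in both, Efnb3, Ntn1, Sema3a and Sema3e, where 2.36% of all were. When only the mutant libraries were fitted, 4 guidance genes were called higher in mutant cushion and 4 lower. The sign of the log2 fold change was the same in both genotypes for 51 of the 63 genes, or 81%, against 67.4% of all genes. With the replicate block, 21 genes were higher in mutant cushion (13.4% of all genes) and 9 lower (10.5%), and with the GC and length correction added 22 were higher (12.4%) and 12 lower (19.3%). The number higher was 3 without mutant cushion replicate 1, 5 without mutant ventricle replicate 1 and 4 without mutant ventricle replicate 2, and the number lower was 3 without any one of these; without mutant cushion replicate 2, which was set off from the rest, 12 were higher and 4 lower. The median was 0.13 without mutant cushion replicate 1 or mutant ventricle replicate 2, and 0.41 without mutant cushion replicate 2. Libraries of the 2 tissues did not overlap, with both cushion libraries above, for 36 genes in wild type (33.5% of all genes) and 27 in mutant (28.9%), and with both below for 11 (31.8%) and 13 (24.2%).

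**Figure D2:**
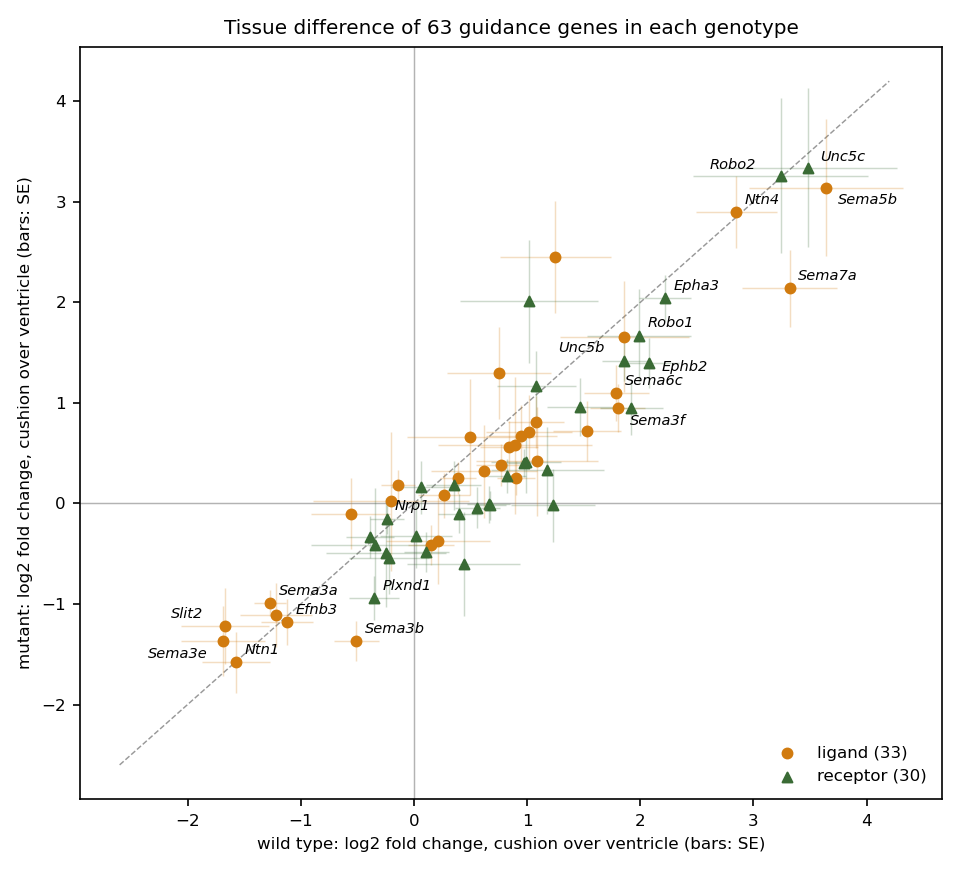
Log2 fold change of cushion over ventricle in wild type (x axis) and mutant hearts (y axis) for the 63 tested genes, with bars of 1 SE, ligands as orange circles and receptors as green triangles; the dashed line marks equal values. Robo2, Unc5c, Sema5b, Sema7a and Ntn4 lie at the upper right, and the points at the lower left that were called lower in both genotypes are all ligands.

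The start regions of 4 of these genes are printed because they represent the patterns described here: Epha3, higher in cushion in both genotypes, Sema3a, lower in both, and Epha4 and Sema5a, the genes called lower in mutant cushion once the replicate number was a block. Capitals mark CACCC and its complement GGGTG, the letters at the core of the sites that Krüppel-like factors are known to bind. Each runs 5′ to 3′ along the gene's strand from 250 bases before to 50 bases after the RefSeq start (GRCm38.p6): Epha3 at chr16:63864126-63864425 on the minus strand, Sema3a at chr5:13396534-13396833 on the plus strand, Epha4 at chr1:77515039-77515338 on the minus strand and Sema5a at chr15:32244563-32244862 on the plus strand.
Epha3: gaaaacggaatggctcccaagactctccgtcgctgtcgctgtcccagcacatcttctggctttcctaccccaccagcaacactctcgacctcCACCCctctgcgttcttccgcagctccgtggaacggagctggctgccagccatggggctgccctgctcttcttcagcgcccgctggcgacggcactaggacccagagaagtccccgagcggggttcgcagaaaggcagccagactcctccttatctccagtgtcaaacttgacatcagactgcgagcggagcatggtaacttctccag
Sema3a: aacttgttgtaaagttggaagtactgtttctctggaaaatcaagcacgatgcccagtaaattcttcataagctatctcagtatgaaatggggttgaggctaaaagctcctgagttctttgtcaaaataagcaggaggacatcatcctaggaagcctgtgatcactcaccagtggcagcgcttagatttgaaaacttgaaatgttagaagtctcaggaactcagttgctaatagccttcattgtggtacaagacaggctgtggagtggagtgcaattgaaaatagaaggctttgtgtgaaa
Epha4: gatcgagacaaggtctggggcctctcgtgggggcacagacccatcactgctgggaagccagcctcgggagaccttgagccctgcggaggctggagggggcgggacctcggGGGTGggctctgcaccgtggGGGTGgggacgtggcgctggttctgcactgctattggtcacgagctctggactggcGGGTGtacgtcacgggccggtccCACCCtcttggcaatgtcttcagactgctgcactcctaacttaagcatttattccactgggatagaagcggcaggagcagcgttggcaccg
Sema5a: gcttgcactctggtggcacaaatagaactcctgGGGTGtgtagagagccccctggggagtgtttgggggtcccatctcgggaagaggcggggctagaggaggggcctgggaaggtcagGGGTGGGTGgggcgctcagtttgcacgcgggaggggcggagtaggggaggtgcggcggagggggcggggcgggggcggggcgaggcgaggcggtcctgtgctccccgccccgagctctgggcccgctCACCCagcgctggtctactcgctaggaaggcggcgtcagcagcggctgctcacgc
The window of Epha3 holds 1 match, those of Epha4 and Sema5a 4 each, of which a pair in Sema5a overlaps, and that of Sema3a none. Not printed are the windows of Unc5b, higher in cushion in both genotypes like Epha3, and of Slit2, lower in wild type cushion. Each of these holds 0 matches. Start windows were found for 54 of the 63 tested genes, and 58 of their 70 windows, or 82.9%, hold at least 1 match on either strand, against 57.5% of the 32851 windows in the table. The guidance windows had a median GC content of 64.3% and all windows 52.7%. A match describes letters only and is neither a binding site nor a cause.

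Among the 7 secreted semaphorins, Sema3a and Sema3e were ventricular and Sema3f was on the cushion side, in both genotypes. Sema3a, a repellent cue that binds Nrp1, measured 71.5 and 68.7 CPM in wild type cushion, 81.3 and 94.0 in mutant cushion, 171.6 and 165.6 in wild type ventricle and 186.2 and 161.3 in mutant ventricle. Each ventricle library was above each cushion library, and Sema3a was 2.41-fold lower in cushion in wild type (log2 fold change -1.27, SE 0.14, adjusted p 0.00095) and 1.98-fold lower in mutant (-0.99, SE 0.13, adjusted p 0.00411). Sema3e, which binds Plxnd1 without a neuropilin, was scarce, at 0.845 and 1.7 CPM in wild type cushion, 1.62 and 2.39 in mutant cushion, 3.8 and 4.54 in wild type ventricle and 5.84 and 4.55 in mutant ventricle. It was 3.23-fold lower in wild type cushion (adjusted p 0.0149) and 2.58-fold lower in mutant cushion (adjusted p 0.0457). Sema3f, a ligand of Nrp2, ran the other way, at 16.9 and 16.8 CPM in wild type cushion, 12.3 and 8.42 in mutant cushion, 5.56 and 4.12 in wild type ventricle and 4.94 and 5.76 in mutant ventricle. The cushion excess was 3.48-fold in wild type (adjusted p 0.00238) and 1.93-fold in mutant (adjusted p 0.0418).

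Sema3b passed in mutant hearts and not in wild type ones. It measured 11.1 and 9.22 CPM in wild type cushion, 7.41 and 5.73 in mutant cushion, 15.2 and 13.7 in wild type ventricle and 15.5 and 18.5 in mutant ventricle. The cushion was lowest in the mutant, 2.59-fold below mutant ventricle (adjusted p 0.00555), and 1.43-fold below in wild type (adjusted p 0.0895, or 0.0329 with the replicate block). The difference between these tissue differences did not pass its own test (interaction -0.86, SE 0.28, adjusted p 0.415). Sema3c, known for its role in septation of the outflow tract, varied with the group and with the replicate number, at 186.3 and 104.4 CPM in wild type cushion, 258.8 and 121.7 in mutant cushion, 102.5 and 70.6 in wild type ventricle and 91.7 and 62.2 in mutant ventricle. Replicate 1 was the higher library in each group; the 1.68-fold cushion excess in wild type passed with the replicate block (adjusted p 0.000932) and not without it (0.281). In mutant the excess was 2.47-fold (adjusted p 0.145, or 1.64e-05 with the block). Sema3d, whose product acts on endothelial cells and neural crest, was at 75.2 and 69.3 CPM in wild type cushion, 96.5 and 83.2 in mutant cushion, 81.5 and 77.5 in wild type ventricle and 87.8 and 70.6 in mutant ventricle, and neither tissue difference passed (adjusted p 0.524 and 0.494). Sema3g stayed between 1.47 and 4.43 CPM, and its 2.03-fold cushion excess in wild type passed only with the block (adjusted p 0.0824, and 0.0261 with the block).

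Of the 12 tested membrane semaphorins, 4 were higher in wild type cushion (12.46% of all genes were), 1 was lower (10.6% of all) and 7 did not pass. Sema5b and Sema7a differed most. Sema5b, a transmembrane semaphorin with thrombospondin repeats, measured 5.63 and 9.1 CPM in wild type cushion, 4.81 and 3.47 in mutant cushion, 0.802 and 0.37 in wild type ventricle and 0.817 and 0.0893 in mutant ventricle. That is a log2 fold change of 3.64 in wild type (SE 0.68, adjusted p 0.0101) and of 3.14 in mutant (SE 0.68, adjusted p 0.0307). Sema7a, which is tethered to the membrane by a lipid anchor and binds Plxnc1 and integrins, measured 5.31 and 5.98 CPM in wild type cushion, 4.22 and 4.3 in mutant cushion, 0.855 and 0.264 in wild type ventricle and 0.94 and 0.982 in mutant ventricle. Its log2 fold change was 3.32 in wild type (SE 0.42, adjusted p 0.00175) and 2.14 in mutant (SE 0.38, adjusted p 0.0122). Sema6c, which belongs to the subfamily that binds class A plexins, went the same way at lower amplitude, 6.76 and 7.28 CPM in wild type cushion against 2.46 and 1.58 in wild type ventricle, and 5.79 and 4.39 against 2.53 and 2.19 in mutant (3.47-fold, adjusted p 0.00427, and 2.15-fold, adjusted p 0.0429).

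The other members of that class were less divided. Sema4c, a ligand of Plxnb2, was 1.87-fold higher in wild type cushion (41.8 and 42.9 CPM against 25.1 and 20.4, adjusted p 0.00807), while in mutant hearts its 35.2 and 27.6 CPM in cushion stood against 25.1 and 27.6 in ventricle (adjusted p 0.402). Sema4d, a ligand of Plxnb1, was the one lower in cushion, at 7.37 and 7.72 CPM in wild type cushion against 22.1 and 12.9 in ventricle (2.32-fold, adjusted p 0.029), and at 7.36 and 8.68 against 21.8 and 12.8 in mutant (2.16-fold, adjusted p 0.0661, or 0.00877 with the replicate block). All 4 ventricle libraries were above all 4 cushion libraries for this gene. Sema6d, the most abundant per length and a known ligand of Plxna1 in cardiac morphogenesis, differed little, at 197.6 and 163.9 CPM in wild type cushion, 176.8 and 163.0 in mutant cushion, 149.1 and 127.1 in wild type ventricle and 157.2 and 128.7 in mutant ventricle (1.31-fold higher in wild type cushion, adjusted p 0.112, or 0.0104 with the block). Sema5a, Sema6a and Sema4g were called higher in wild type cushion only with the block (adjusted p 6.12e-05, 0.00123 and 0.0192 with it, and 0.195, 0.385 and 0.0589 without). In mutant the same held for Sema5a (adjusted p 0.696, or 0.0266 with the block) and Sema6a (0.663, or 0.0126). Sema4a, Sema4b and Sema6b were called in neither tissue comparison, with or without the block.

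Of their receptors, the 11 plexins and neuropilins, 2 were higher in wild type cushion (12.46% of all genes were) and none was lower (10.6% of all). The class had a median difference of 0.11 on the log2 scale. With the replicate block 5 were higher (21.2% of all genes) and none lower (20.1%). With the block and the GC and length correction, 1 of the 11 was higher (16.3% of all genes) and 4 were lower (24.9%). Nrp1 measured 475.7 and 466.0 CPM in wild type cushion, 472.6 and 572.9 in mutant cushion, 591.1 and 523.9 in wild type ventricle and 618.0 and 544.4 in mutant ventricle, and neither tissue difference passed (adjusted p 0.278 in wild type and 0.598 in mutant). Nrp2, the receptor shared by Sema3c and Sema3f, was at 42.0 and 33.2 CPM in wild type cushion, 46.3 and 37.7 in mutant cushion, 36.7 and 22.2 in wild type ventricle and 40.0 and 34.0 in mutant ventricle. The groups of Nrp2 overlapped, and its 1.28-fold cushion excess in wild type passed only with the block (adjusted p 0.324, and 0.0394 with the block). The count table gives Nrp2 on 6 rows, of which the smallest holds 49.9% of the reads of the largest, the one used here.

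Plxnd1, the endothelial plexin required for outflow tract septation, measured 112.2 and 133.8 CPM in wild type cushion, 108.2 and 110.8 in mutant cushion, 194.9 and 119.3 in wild type ventricle and 218.1 and 202.7 in mutant ventricle. The wild type libraries overlapped (1.28-fold lower in cushion, adjusted p 0.263, or a log2 fold change of -0.98 and 0.000371 with the block and the GC and length correction), and the mutant cushion was 1.92-fold below mutant ventricle (log2 fold change -0.94, SE 0.22, adjusted p 0.0312). The 10 endothelial and endocardial markers summed to 1371 to 1706 CPM in the cushion libraries and 1786 to 2304 in the ventricle libraries, but did not move as 1 group. In wild type 4 had positive and 6 negative log2 fold changes, with a median of -0.11, and in mutant 3 and 7, with a median of -0.49. The called ones were Npr3 and Emcn in wild type and Npr3 and Tie1 in mutant, all lower in cushion. Npr3 alone went from 591.2 and 587.0 CPM in wild type ventricle to 197.6 and 261.0 in wild type cushion. Their part in the Plxnd1 difference was not tested. Plxnb2 was 1.58-fold higher in wild type cushion (247.2 and 239.9 CPM against 181.0 and 128.0, adjusted p 0.0355). With the block and the GC and length correction its log2 fold change fell from 0.66 to 0.12 and the call was lost (adjusted p 0.223). In mutant its 190.6 and 151.9 CPM in cushion overlapped the 175.7 and 168.1 in ventricle. Plxnb3 was called at about 1 CPM (2.07 and 1.7 against 0.962 and 0.634, 2.35-fold, adjusted p 0.0436, or 0.0986 with that correction). Plxna1, a receptor for Sema6d, was at 63.7 and 65.7 CPM in wild type cushion, 51.9 and 40.5 in mutant cushion, 52.8 and 35.1 in wild type ventricle and 48.5 and 46.7 in mutant ventricle (1.47-fold higher in wild type cushion, adjusted p 0.0754, or 0.00577 with the block). The remaining plexins, Plxna2, Plxna3, Plxna4, Plxnb1 and Plxnc1, did not pass in either genotype without the block. With it Plxna3 was higher in wild type cushion (adjusted p 0.0517 without and 9.47e-05 with the block), and Plxna2 and Plxnb1 were lower in mutant cushion (0.415 and 0.171 without, 0.0141 and 0.0163 with the block).

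Ephrins went both ways. Efna4, Efnb1 and Efna3 were higher in wild type cushion and Efnb3 was lower in both genotypes. Efnb3, a transmembrane ligand of EphB receptors and Epha4, measured 39.8 and 55.7 CPM in wild type cushion, 36.5 and 55.7 in mutant cushion, 106.3 and 101.3 in wild type ventricle and 97.2 and 111.8 in mutant ventricle. All ventricle libraries were above all cushion libraries, with 2.17-fold less in wild type cushion (log2 fold change -1.12, SE 0.23, adjusted p 0.0112) and 2.26-fold less in mutant cushion (adjusted p 0.0167). Efna4, an anchored ligand of EphA receptors, ran from 12.3 and 12.9 CPM in wild type cushion to 3.69 and 5.02 in wild type ventricle (2.89-fold, adjusted p 0.0102), with 10.6 and 5.73 in mutant cushion and 4.62 and 5.31 in mutant ventricle (adjusted p 0.178). Efnb1 was 1.71-fold higher in wild type cushion (26.7 and 39.7 CPM against 20.2 and 18.7, adjusted p 0.034). This call was lost with the block and the GC and length correction (log2 fold change 0.77 to 0.26, adjusted p 0.117). Efna3 passed in wild type at a level of 0.106 to 0.751 CPM over the 8 libraries, and not with that correction (adjusted p 0.0712). Efna2, at 3.51 to 7.95 CPM, just missed the threshold (1.79-fold, adjusted p 0.0504, or 0.0153 with the block), and Efna5 overlapped between all groups.

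The ephrins best known in heart and vessels did not pass in either genotype. Efna1, the ligand paired with Epha3 in studies of the AV cushion, measured 18.9 and 27.3 CPM in wild type cushion, 27.1 and 24.1 in mutant cushion, 18.8 and 19.6 in wild type ventricle and 19.7 and 28.6 in mutant ventricle, with overlapping groups (adjusted p 0.419 and 0.865). Efnb2, the arterial marker, was at 49.4 and 34.9 CPM in wild type cushion, 68.5 and 37.1 in mutant cushion, 69.5 and 55.1 in wild type ventricle and 69.5 and 43.9 in mutant ventricle. Both wild type cushion libraries were the lower ones (1.48-fold, adjusted p 0.287), which passed with the replicate block (adjusted p 0.00323), and the mutant libraries overlapped.

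The Eph receptors were tilted to the cushion: 10 of the 11 tested had positive log2 fold changes in wild type, with both cushion libraries above both ventricle libraries (33.5% of all genes). Of the 11, 7 passed as higher (12.46% of all genes). The median was 1.08 in wild type and 0.4 in mutant. In mutant 2 of 11 passed as higher (6.16% of all genes), or 6 with the replicate block (13.4%), against 8 with it in wild type (21.2%). The 9 netrins and netrin receptors had medians of 1.08 and 1.42. Epha3, whose loss is known to impair the mesenchyme of AV cushions, measured 170.2 and 117.2 CPM in wild type cushion, 123.1 and 97.8 in mutant cushion, 34.7 and 26.9 in wild type ventricle and 29.8 and 23.7 in mutant ventricle. It was 4.66-fold higher in wild type cushion (log2 fold change 2.22, SE 0.23, adjusted p 0.000964) and 4.12-fold higher in mutant cushion (2.04, SE 0.23, adjusted p 0.00244). Ephb2, a receptor of B-type ephrins, was 4.24-fold higher in wild type cushion (17.3 and 19.7 CPM against 4.65 and 4.07, adjusted p 0.00167) and 2.64-fold higher in mutant cushion (14.2 ± 3.14 against 5.38 ± 1.6 CPM, mean ± SD, n = 2, edgeR adjusted p 0.0126). Both genes thus passed in each genotype.

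Epha7, the Eph receptor with the highest level per length in cushion, with Ephb4 above it in ventricle (21.8 against 18.8 CPM per kb in wild type), was at 326.7 and 209.3 CPM in wild type cushion, 297.9 and 191.2 in mutant cushion, 146.6 and 106.6 in wild type ventricle and 134.6 and 82.5 in mutant ventricle. Cushion libraries were above ventricle libraries throughout, but the spread between replicates was wide (2.12-fold, adjusted p 0.0642 in wild type, and 2.25-fold, adjusted p 0.087 in mutant); with the replicate block both passed (adjusted p 6.67e-06 and 4.36e-06). The table gives Epha7 on 2 rows, and the smaller holds 51.0% of the reads of the one used here. Ephb6, a receptor without kinase activity, was 3.79-fold higher in wild type cushion, at 8.08 and 8.27 CPM against 1.92 and 2.38 in ventricle (adjusted p 0.00318), with 6.57 and 4.12 against 2.74 and 2.77 in mutant (adjusted p 0.0645, or 0.0164 with the block). Epha1 (2.78-fold), Epha4 (1.96-fold), Ephb3 (1.76-fold) and Ephb4 (1.6-fold, lost with the block and the GC and length correction, adjusted p 0.147) completed the calls in wild type. In mutant Epha1 (18.4 and 10.2 CPM in cushion against 7.27 and 7.41 in ventricle, adjusted p 0.0754, or 0.00393 with the block) and Epha4 (0.116, or 0.019 with the block) passed only with the block. Epha2, Epha5 and Ephb1 passed in neither genotype.

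Slit2 and its receptors Robo1 and Robo2 lay on opposite sides. Slit2 was ventricular, at 129.8 and 120.6 CPM in wild type cushion, 154.0 and 170.1 in mutant cushion, 523.1 and 271.7 in wild type ventricle and 498.7 and 257.7 in mutant ventricle. No cushion library reached a ventricle one; the cushion level was 3.17-fold lower in wild type (log2 fold change -1.67, SE 0.39, adjusted p 0.0258) and 2.33-fold lower in mutant (-1.22, SE 0.38, adjusted p 0.103, or 0.0506 with the block). Robo1 measured 456.1 and 240.9 CPM in wild type cushion, 298.0 and 202.0 in mutant cushion, 111.8 and 64.3 in wild type ventricle and 99.8 and 57.6 in mutant ventricle. Robo2 was steeper, at 240.7 and 128.3 CPM in wild type cushion, 196.2 and 123.0 in mutant cushion, 29.0 and 9.98 in wild type ventricle and 25.4 and 7.9 in mutant ventricle. For both receptors every cushion library was above every ventricle library and replicate 1 was the higher of each group. The cushion excess was 3.96-fold for Robo1 (adjusted p 0.0282) and 9.46-fold for Robo2 (adjusted p 0.0331) in wild type, and 3.18-fold (adjusted p 0.0777, or 2.28e-07 with the block) and 9.57-fold (adjusted p 0.0564, or 5.66e-05 with the block) in mutant. Slit3, a ligand of the same receptors known for roles in heart septation, overlapped between all groups, with 10.7 and 24.4 CPM in wild type cushion, 22.8 and 13.9 in mutant cushion, 14.6 and 8.34 in wild type ventricle and a mean of 14.6 in mutant ventricle (adjusted p 0.375 and 0.727). Robo4, the endothelial Robo, was lower in all cushion libraries (5.2 to 6.04 CPM) than in all ventricle ones (6.55 to 8.5 CPM), without passing (adjusted p 0.212 in wild type, or 0.00497 with the block and the GC and length correction, and 0.386 in mutant).

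Ntn1 and the receptors Unc5b and Unc5c repeated that arrangement, with Ntn1 higher in ventricle and the receptors in cushion. The netrins Ntn3 and Ntn4 did not, and were higher in wild type cushion. Ntn1, the founding secreted netrin, measured 58.9 and 66.6 CPM in wild type cushion, 41.1 and 82.8 in mutant cushion, 206.4 and 167.3 in wild type ventricle and 182.4 and 187.8 in mutant ventricle, 2.98-fold less in wild type cushion (log2 fold change -1.57, SE 0.3, adjusted p 0.0112) and 2.99-fold less in mutant cushion (adjusted p 0.0198). Unc5b, a netrin receptor of endothelial cells, measured 320.9 and 317.5 CPM in wild type cushion, 283.7 and 214.0 in mutant cushion, 103.1 and 72.7 in wild type ventricle and 96.8 and 88.9 in mutant ventricle. It was 3.63-fold higher in wild type cushion (log2 fold change 1.86, SE 0.2, adjusted p 0.000965) and 2.68-fold higher in mutant cushion (1.42, SE 0.2, adjusted p 0.0046). Of the 10 endothelial and endocardial markers, 4 had positive and 6 negative log2 fold changes in wild type, as given above. Their part in the Unc5b difference was not tested. Unc5c, a further repellent netrin receptor, was 11.1-fold higher in wild type cushion, at 356.0 and 180.8 CPM against 33.7 and 14.5 (adjusted p 0.0291), and 10.2-fold higher in mutant cushion, at 241.3 and 117.8 against 27.1 and 8.13 (adjusted p 0.0556, or 2.63e-08 with the block).

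Ntn4, a netrin that binds laminin in basement membranes, was a cushion ligand, at 34.0 and 24.8 CPM in wild type cushion, 25.3 and 15.8 in mutant cushion, 4.97 and 3.17 in wild type ventricle and 3.43 and 2.05 in mutant ventricle. It was 7.21-fold higher in wild type cushion (log2 fold change 2.85, SE 0.36, adjusted p 0.00225) and 7.44-fold higher in mutant cushion (2.9, SE 0.36, adjusted p 0.00375). Ntn3 was 2.12-fold higher in wild type cushion (8.26 and 8.94 CPM against 3.8 and 4.33, adjusted p 0.0191, or 0.0784 with the block and the GC and length correction). In mutant it passed with the block (6.18 and 5.25 CPM against 2.57 and 3.97, adjusted p 0.0902, or 0.0228). Dcc, the attractant receptor, stayed between 3.76 and 11.3 CPM with overlapping groups, and Unc5a and Unc5d were near or below 1 CPM and passed in neither genotype without the block. With it Unc5d was higher in mutant cushion (adjusted p 0.0762, or 0.0178 with the block). Ntng1 was called higher in mutant cushion at 0.163 to 1.47 CPM over the 4 mutant libraries (5.45-fold, adjusted p 0.0301); its smallest row, with 57.3% of the reads of the largest, was not called.

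**Figure D3:**
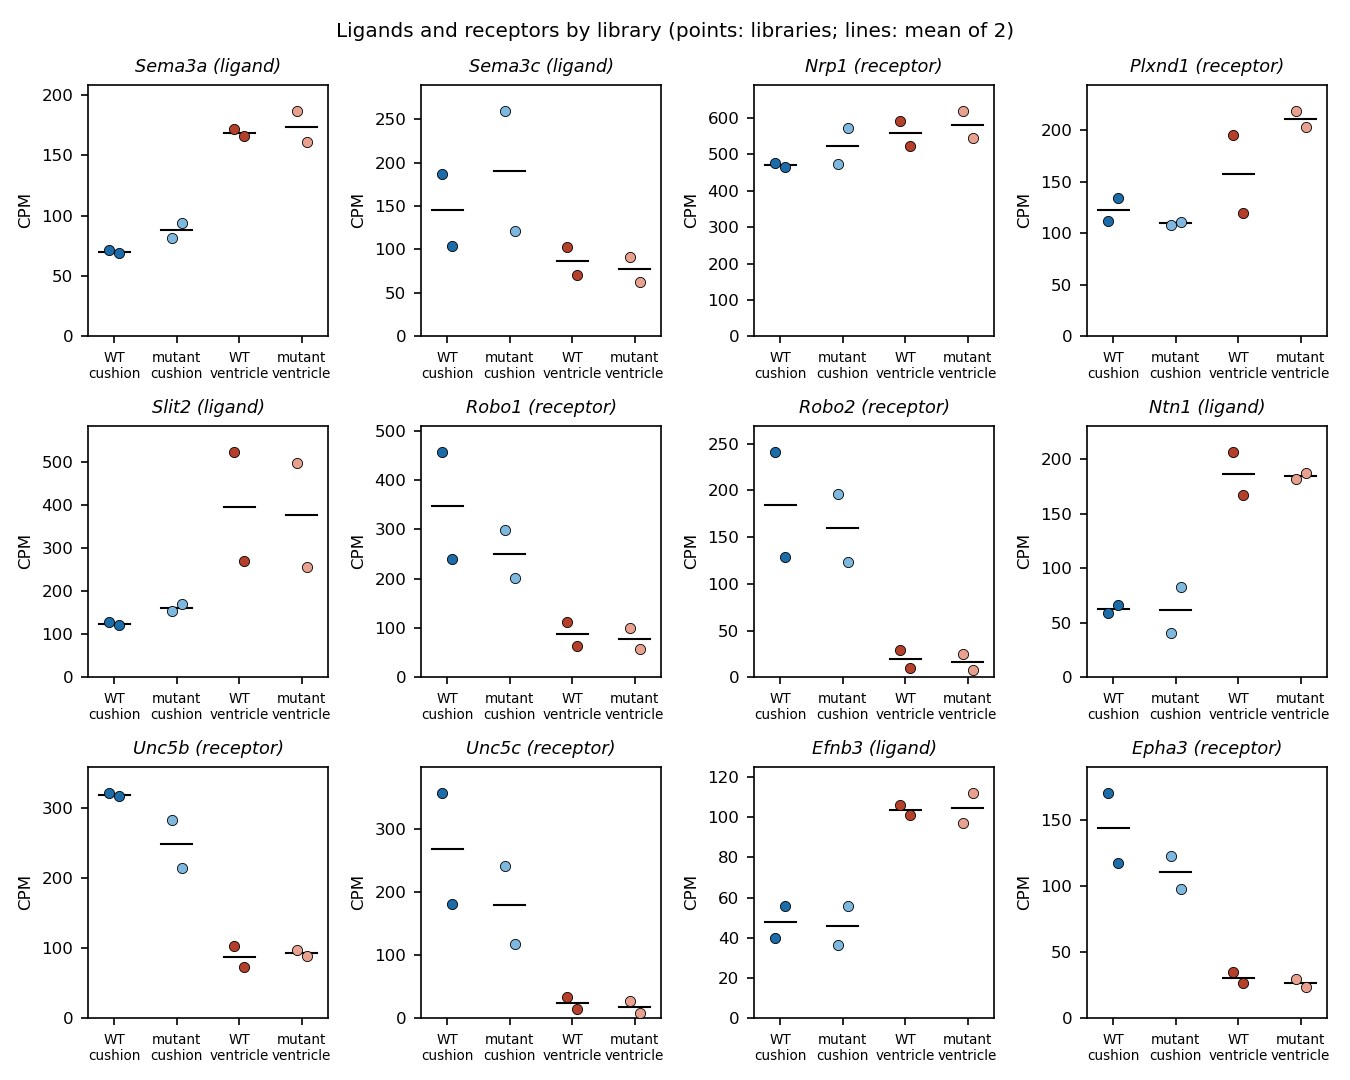
CPM in each library (points, 2 per group) with the group mean (line) for 12 ligands and receptors; each y axis starts at 0. Sema3a, Slit2, Ntn1 and Efnb3 are highest in both ventricle groups and Robo1, Robo2, Unc5b, Unc5c and Epha3 in both cushion groups, while Nrp1 differs little.

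Other genes of guidance signalling that passed in wild type were mostly higher in cushion. From a list of 68 co-receptors, further ligands and cytoplasmic effectors, 61 were tested; 17 were higher in wild type cushion (12.46% of all genes were) and 1, the adaptor gene Nck1, was lower where 10.6% of all genes were (49.8 and 45.4 CPM against 58.5 and 70.3, log2 fold change -0.44, adjusted p 0.0456). The list's median was 0.34 on the log2 scale. Dpysl4, of the collapsin response mediators that act below plexins, measured 16.4 and 14.6 CPM in wild type cushion, 6.72 and 5.47 in mutant cushion, 0.641 and 0.634 in wild type ventricle and 0.368 and 0.625 in mutant ventricle (log2 fold change 4.59, SE 0.3, adjusted p 0.000179 in wild type, and 3.61, SE 0.3, adjusted p 0.00101 in mutant). Gpc1, a heparan sulphate proteoglycan that binds Slits, was at 175.2 and 192.4 CPM in wild type cushion and 65.5 and 62.4 in wild type ventricle (log2 fold change 1.52, adjusted p 0.00127). In mutant hearts 6 of the 61 were higher in cushion, Dpysl4, Flrt3, Plxdc2, Mical1, Ablim3 and Pak1, where 6.16% of all genes were. None was lower, where 3.26% were. These counts are near those shares.

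Markers of neurons and neural crest also differed between the tissues. Of 11 such genes 7 were tested, and the list summed to 28.2 to 48.3 CPM in the cushion libraries against 9.64 to 13.5 in the ventricle libraries. In wild type 4 of the 7 were higher in cushion and none lower, among them the neuronal tubulin Tubb3 (31.4 and 28.8 CPM in wild type cushion, 16.2 and 11.9 in mutant cushion, 0.634 to 1.59 in the ventricle libraries) and Sox10 (1.41 and 1.38 CPM in wild type cushion). The neural crest factor Foxd3 had no read in any library. Their part in the tissue differences of the guidance genes was not tested, nor was that of the cushion mesenchyme markers.

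The comparison of mutant with wild type cushion is the one the study is named for. No guidance gene passed edgeR's test (adjusted p below 0.05), and neither did any of the 14940 genes (0%); DESeq2 called none of the guidance genes either. At an unadjusted p below 0.05, 12 guidance genes were lower in mutant cushion (5.23% of all genes were) and 1 higher (6.14% of all). The values leaned downward: 47 of 63 had negative log2 fold changes, with a median of -0.28 against -0.01 for all genes, and the median was -0.52 without mutant cushion replicate 1 and -0.18 without mutant cushion replicate 2. In the same libraries 7 of 8 epicardial markers had positive log2 fold changes (median 0.53), and the list summed to 289 to 355 CPM in mutant cushion against 210 to 255 in wild type cushion. All 6 erythroid markers were positive too (median 0.62), with sums that overlapped, at 908 to 3498 against 742 to 1766 CPM. None of these markers was called, and their part in the lower guidance values was not tested. Both mutant libraries were below both wild type libraries for 23 genes (23.9% of all genes) and above for 3, Sema3a, Sema3d and Slit2 (24.5% of all). Receptors had a median of -0.37 and ligands of -0.17, and the secreted semaphorins, at 0.31, were the one class with a positive median in this fit. With the block and the GC and length correction, Sema3a to Sema3g were at 0.11, -0.36, 0.2, 0.06, 0.48, -0.39 and 0.24, in alphabetical order.

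With the replicate number as a block, Epha4 and Sema5a were lower in mutant cushion (0.569% of all genes were called lower) and none was higher (0.295% of all). Epha4, a receptor that binds ephrins of both types, measured 93.4 and 84.3 CPM in wild type cushion and 56.9 and 60.7 in mutant cushion, without overlap, and was 1.51-fold lower (log2 fold change -0.6, SE 0.14, adjusted p 0.435, or 0.0279 with the block). Sema5a, a transmembrane ligand of class 5, measured 83.4 and 37.6 CPM in wild type cushion and 41.1 and 28.4 in mutant cushion; the groups overlapped, and within each replicate number the mutant was lower (1.74-fold, adjusted p 0.551, or 0.031 with the block). In the ventricle both genes differed little, with 49.1 and 41.6 CPM against 47.6 and 41.4 for Epha4 and 37.0 and 19.5 against 34.1 and 17.8 for Sema5a, wild type first.

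Epha4 and Sema5a carry 4 matches each to CACCC or GGGTG in the start windows printed above. The shares given there are of windows with at least 1 match, and the share with 4 matches was not counted. The part of these letters in the lower values of Epha4 and Sema5a was not tested. When GC content and transcript length were corrected for in the blocked fit, Epha3 and Unc5c joined them as lower (0.315% of all genes), and the median over the 63 genes moved to -0.08. Log2 fold changes of mutant against wild type cushion ran with transcript GC content across genes, at a rank correlation of -0.607 over 14747 genes and -0.434 over the 63, and the guidance transcripts were richer in GC, with a median of 55.2% against 49.6%. Across genes such a correlation is a description, since genes of a library share its depth and base composition. The part of GC content in the downward lean of the guidance genes was not tested beyond that correction.

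The smallest unadjusted p-values after that of Epha4 belonged to 2 more Eph receptors. Ephb3 measured 49.9 and 48.8 CPM in wild type cushion and 36.6 and 29.4 in mutant cushion (log2 fold change -0.58, SE 0.17, adjusted p 0.435). Ephb4, the venous receptor of Efnb2, measured 147.1 and 154.9 CPM against 114.4 and 107.6 (-0.44, SE 0.14, adjusted p 0.435). Neither gene's groups overlapped, and neither passed with the block (adjusted p 0.0574 and 0.076). With the block and the GC and length correction, the log2 fold changes shrank to -0.26 for Ephb3 and -0.08 for Ephb4 (edgeR adjusted p 0.269 and 0.689). Sema3b had -0.63 (SE 0.2, adjusted p 0.435), or -0.36 with the block and that correction. The other genes with an unadjusted p below 0.05 were Ephb6, Ntn3, Plxna1, Plxnb1, Plxnb2, Sema3f, Sema4b and Sema4c. Their log2 fold changes were -0.71 to -0.43, or -0.39 to -0.08 with the block and that correction. Among values on the higher side, Sema3a had 0.32 (SE 0.13, adjusted p 0.435), Sema3d 0.31 (SE 0.15, adjusted p 0.445), Sema3e 0.64 (SE 0.38, adjusted p 0.509) and Nrp1 0.15 (SE 0.15, adjusted p 0.687). None passed with the block, and with the correction added the values were 0.11, 0.06, 0.48 and -0.09, in the same order. The differences named in this paragraph were at most 1.63-fold in size.

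**Figure D4:**
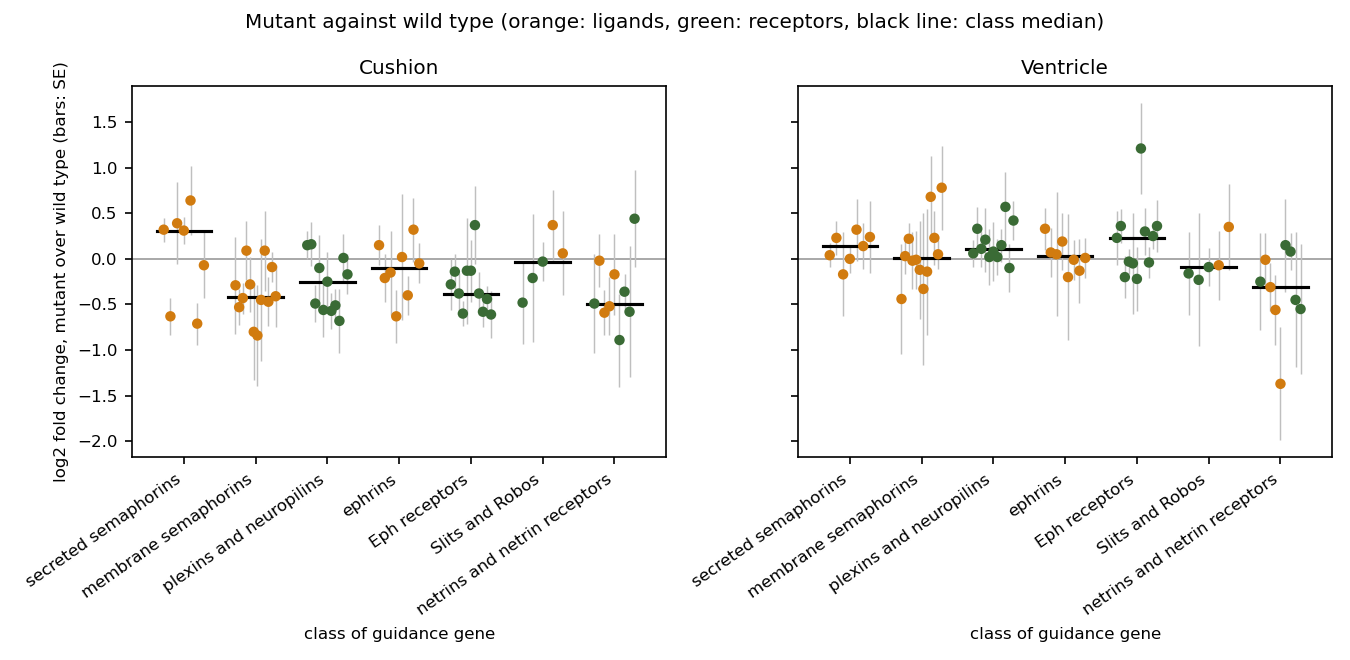
Log2 fold change of mutant over wild type (y axis, bars of 1 SE) for the 63 tested genes by class (x axis) in cushion (left) and ventricle (right), ligands in orange and receptors in green, with the class median as a black line. Values are from the fit without the block or the GC and length correction. In cushion 6 of the 7 class medians lie below 0 and that of the secreted semaphorins at 0.31; in ventricle the medians lie between -0.31 and 0.23.

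In ventricle no guidance gene differed between the genotypes by edgeR (0% of all genes were called) or DESeq2. With the replicate block none did either, where 0.00669% of all genes were called. At an unadjusted p below 0.05, none was lower (1.1% of all genes were) and 1, Ephb1, was higher (1.18% of all), at 1.02 and 0.714 CPM in mutant against 0.374 and 0.37 in wild type. The median log2 fold change was 0.03, with 35 genes positive and 28 negative. Both mutant libraries were below both wild type ones for Ntng1 (14.6% of all genes) and above for 13 genes (13.1%), among them Plxnd1 (218.1 and 202.7 CPM against 194.9 and 119.3, adjusted p 0.998), Epha2, a receptor of A-type ephrins (17.6 ± 3.36 against 13.7 ± 1.77 CPM, mean ± SD, n = 2, edgeR adjusted p 0.998), Ephb4 (110.2 and 115.0 against 104.7 and 84.5, adjusted p 0.998) and Sema7a (adjusted p 0.998). On the lower side, Ntn4 had a log2 fold change of -0.56 (SE 0.38), Ntn3 -0.31 (SE 0.26), Epha7 -0.22 (SE 0.35) and Epha3 -0.2 (SE 0.23), each with an adjusted p of 0.998. The median over the genes was 0.35 without wild type ventricle replicate 1 and -0.14 without wild type ventricle replicate 2, so its sign depended on 1 library.

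Whether the genotype difference itself differed between cushion and ventricle was tested as an interaction, which equals the tissue difference in mutant minus that in wild type. No guidance gene passed (0% of all genes did), with or without the block. At an unadjusted p below 0.05, 9 had a lower value (4.96% of all genes did) and none a higher one (6.93% of all): Epha4, Ephb3, Ephb4, Ephb6, Plxnb2, Plxnb3, Sema3b, Sema3f and Sema4c. Ephb4 had the smallest p, with an interaction of -0.7 (SE 0.19, adjusted p 0.415): in wild type it was 1.6-fold higher in cushion (adjusted p 0.0112), and in mutant its 114.4 and 107.6 CPM in cushion overlapped the 110.2 and 115.0 in ventricle. Epha4 (-0.57, SE 0.2) and Sema4c (-0.65, SE 0.24) had the same adjusted p of 0.415. On the positive side stood Sema3a (0.28, SE 0.19), Sema3d (0.32, SE 0.21), Sema3c (0.56, SE 0.64) and Efnb2 (0.46, SE 0.5), with adjusted p between 0.518 and 0.738. The median interaction of the 63 genes was -0.31, against -0.01 for all genes, and -0.12 with the block and the correction for GC content and length; without wild type ventricle replicate 1 it was -0.71 and without wild type ventricle replicate 2 -0.08. The interaction ran with GC content across genes (rank correlation -0.657 over all and -0.638 over the 63). The fewer calls in the mutant tissue comparison than in the wild type one are therefore not shown to be a difference between the genotypes for any gene named here.

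None of the 61 tested genes of the wider guidance list passed in either genotype comparison. Their median log2 fold change was -0.12 in cushion, where 44 of 61 were lower in mutant. Dpysl4 (16.4 and 14.6 CPM against 6.72 and 5.47) and Gpc1 (175.2 and 192.4 against 111.2 and 107.2) had mutant cushion libraries below the wild type ones. Tubb3 was lower in the same libraries (31.4 and 28.8 CPM in wild type cushion against 16.2 and 11.9 in mutant cushion). The neural and neural crest list, of which Tubb3 is the largest part, summed to 48.3 and 47 CPM against 33.2 and 28.2. Of its 7 tested markers 6 had negative log2 fold changes, while Elavl4 was higher (6.62 and 7.29 CPM in mutant cushion against 4.65 and 6.37). The cushion mesenchyme list had 9 of 10 markers lower. None of these markers was called, and their part in the lower guidance values was not tested.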

How the data were processed

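RNA was extracted with a micro column kit and made into libraries with a stranded total RNA kit after ribosomal RNA removal, per the labels' protocols; the submitters' processing notes name Bowtie 0.12.7 and mm9. Which program counted the reads, with which annotation and strand setting, is not given in the sources used here. Raw counts were what the authors deposited, in 8 identical tables of which 1 was read, with 26562828 to 37694738 counts per library over all 28644 rows. Each symbol is represented by its row of largest total, which matters for 16 of the 71 guidance genes on more than 1 row.

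Genes kept by edgeR's filterByExpr were scaled with TMM and tested by edgeR's quasi-likelihood test (edgeR 4.0.16, R 4.3.3) over all 8 libraries in 4 groups, two-sided, with Benjamini-Hochberg adjustment over all 14940 genes and a threshold of 0.05; the code was tested on simulated counts. Replicate numbers were checked for pairing: deviations of same-numbered libraries correlated at 0.341 to 0.522 in all 6 pairs of groups, a hint from the data since the labels state no pairing, so blocked values stand beside the results they change. Alternatives were DESeq2 1.42.0, other scaling, filters and rows, a GC and length correction, and leaving out each library. Levels per length use the longest GENCODE release 21 transcript.

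Values by library are given for up to 10 genes per direction and comparison that passed without overlap at a mean of at least 1 CPM (4 with the smallest p where none passed), the highest gene per length in each class by its mean over the 8 libraries, and a list of textbook heart and vessel genes; other genes are named where a count or pattern needs them. The genes and lists were chosen with earlier results of these data known.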

Additional observations from a re-analysis of the deposited data

How the results depend on the processing

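Of 67 results for named genes, 31 passed the test, and 12 of these kept their direction and their call under every alternative: Epha3, Ntn4, Sema3a and Unc5b in both tissue comparisons, Ephb2, Ephb6 and Sema7a in wild type and Sema3b in mutant. Other size factors and the replicate block took away no call in either tissue comparison. DESeq2 took away the wild type calls of Efna3 and Plxnb3 (DESeq2 adjusted p 0.154 and 0.0988) and no other. Efna3 and Plxnb3 were also lost in wild type with only the compared groups fitted or with no low-count filter. Robo1, Robo2 and Unc5c were lost in wild type when only the compared groups were fitted (adjusted p 0.0574 to 0.0933) or no low-count filter was used (0.056 to 0.0793). Ephb2, Ntn1, Sema3e, Sema3f, Sema5b and Sema6c were lost in mutant with only the compared groups fitted (0.0512 to 0.106), and Efna3, Efnb1, Ephb4, Ntn3, Plxnb2 and Plxnb3 in wild type with the block and the GC and length correction (0.0712 to 0.223).

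Counts of guidance genes changed as follows. Higher in wild type cushion, 23 became 8 to 26 when 1 library was left out. Lower in wild type cushion, 6 became 13 with the block and GC and length correction and 1 to 6 with 1 library left out. Higher in mutant cushion, 9 became 21 with the replicate block, 15 with DESeq2, 4 with the compared groups only, 22 with the block and correction, and 3 to 12 with 1 library left out. Lower in mutant cushion, 6 became 12 with the block and correction and 3 to 6 with 1 library left out. Called in mutant against wild type cushion, 0 became 2 with the block and 4 with the block and correction. The cause was not tested. The replicate block changed no other call of a guidance gene than those given beside the results.

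Leaving out a library of the groups compared cost these named calls in wild type: Efnb3, Ephb4, Ntn1, Robo1, Robo2, Sema3e, Sema4d, Slit2 and Unc5c without wild type cushion replicate 1 (adjusted p 0.051 to 0.15), Ephb4, Ntn1, Robo2, Sema4d, Sema5b, Slit2 and Unc5c without wild type cushion replicate 2 (0.0507 to 0.14), Efnb3, Sema4d and Slit2 without wild type ventricle replicate 1 (0.0507 to 0.146), and Efnb3, Ephb4, Robo1, Robo2, Sema3e, Sema5b and Unc5c without wild type ventricle replicate 2 (0.0703 to 0.123). In mutant they were Efnb3, Ephb2, Plxnd1, Sema3e, Sema3f, Sema5b, Sema6c and Sema7a without mutant cushion replicate 1 (0.0633 to 0.293), Plxnd1, Sema3e and Sema5b without mutant cushion replicate 2 (0.0576 to 0.0933), Ntn1, Plxnd1, Sema3e, Sema3f, Sema6c and Sema7a without mutant ventricle replicate 1 (0.0555 to 0.146), and Efnb3, Ntn1, Plxnd1, Sema3e, Sema3f, Sema5b, Sema6c and Sema7a without mutant ventricle replicate 2 (0.057 to 0.196). A library left out of the other genotype cost Robo2 and Slit2 in wild type (mutant cushion replicate 1 or 2, 0.0506 to 0.0595) and 2 to 4 of Sema3e, Sema3f, Sema5b and Sema6c in mutant (0.05 to 0.0859). A group left with 1 library was assumed to vary like the others.

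Directions of 56 of the 67 held throughout; none of those that turned had passed the test. With 1 library left out, log2 fold changes ran from -0.02 to 0.5 for Efna1, from -0.66 to 0.04 for Plxnd1 and from -0.1 to 1.08 for Slit3 between wild type tissues, from -0.37 to 0.02 for Epha3 and from -0.61 to 0.09 for Epha7 between ventricle genotypes, and from -0.05 to 0.84 for Efnb2 and from -0.09 to 1.01 for Sema3c in the interaction. With the block and the GC and length correction, Nrp1 turned to -0.09 between cushion genotypes, Sema3a and Sema3d to -0.1 and -0.12 in the interaction, and Sema3d to 0.05 between wild type tissues. Genes below 1 CPM rest on fewer than 26 reads a library and are the least certain.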

Other observations

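Many guidance genes followed the replicate number, which was noticed after the values were seen. The first replicate was the higher library in all 4 groups for 24 of the 63 tested guidance genes, or 38.1%, against 19.1% of all tested genes, and the second replicate was the higher in all 4 groups for none of the 63, against 17.1% of all. Among the 24 were Robo1, Robo2, Unc5b, Unc5c, Dcc, Epha3, Epha7, Sema3c, Sema5a and Ntn4. Unc5c measured 356.0 CPM in the first and 180.8 in the second wild type cushion library, 241.3 and 117.8 in mutant cushion, 33.7 and 14.5 in wild type ventricle and 27.1 and 8.13 in mutant ventricle. Dcc, for which no tissue difference passed, measured 11.3 and 3.76 CPM in wild type cushion, 5.98 and 4.69 in mutant cushion, 10.9 and 6.86 in wild type ventricle and 9.6 and 5.36 in mutant ventricle. For Dcc the spread between the wild type cushion replicates was larger than any difference between group means, which were 7.51, 5.34, 8.88 and 7.48 CPM in the same order. Of the marker lists, 3 had a higher sum in the first replicate of each group. The cardiomyocyte list was at 105374 and 46514 CPM in wild type ventricle, 95845 and 47251 in mutant ventricle, 49441 and 32463 in wild type cushion and 36735 and 35272 in mutant cushion, a nearly equal pair. The erythroid list was at 6489 and 2271 CPM, 7589 and 2574, 1766 and 742, and 3498 and 908, and the cushion mesenchyme list at 1513 and 939, 1389 and 721, 7994 and 5443, and 6348 and 4888, in the same order. Their part in the replicate difference was not tested.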
